A study of Mus musculus with 4 samples.

Results

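The genes described here are 10007 mouse genes for long noncoding RNAs (lncRNAs) that lie away from protein-coding gene ends. They were taken from the RefSeq gene table of GRCm38.p6 (mm10) as every gene of biotype lncRNA on chromosomes 1-19, X and Y whose start and end are both more than 2 kb from every end of a protein-coding gene. The table holds 12727 lncRNA genes on these chromosomes, so 2720 were set aside for lying within 2 kb of a coding gene end. A gene was counted as having a peak in a library when a peak summit lay within 1 kb of either of its ends. It follows that no peak counted at these genes has its summit within 1 kb of a coding gene end. The choice of the genes used positions and annotation only, not the peak values.

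The data are 4 CUT&Tag libraries from haematopoietic stem cells, sorted from wild-type C57BL/6J bone marrow as CD48-CD150+LSK cells; all 4 libraries share this strain, genotype and sort, and the labels give no treatment and no age. CUT&Tag brings a transposase to the sites that an antibody recognises in intact nuclei, and the fragments it cuts out are sequenced. An antibody to ATF2 phosphorylated at T69/71 was used in 2 libraries and an antibody to ATF2 phosphorylated at S490/498 in the other two. The sample titles, followed here, name T69/71, but the field for the antibody reads T67/71. The labels do not state whether replicate libraries were made from separate mice, so their spread may be technical, and an IgG or input control was not analysed here. The lists hold positions of antibody signal and no RNA levels, so the sort was not checked against marker genes.

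LncRNAs are transcripts without a long reading frame. Some act where they are made, such as Kcnq1ot1, which silences an imprinted cluster in cis, some build nuclear bodies, such as Neat1 in paraspeckles, and some are precursors whose introns carry small nucleolar RNAs (snoRNAs). ATF2 is a basic leucine zipper factor that binds the cyclic AMP response element (CRE) as a homodimer or with Jun proteins. The threonines at T69/71 lie in its activation domain and are phosphorylated by the stress kinases JNK and p38. The serines at S490/498 lie near its C-terminal end and are known to be phosphorylated by ATM, a kinase of the response to DNA breaks.

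The lists of T69/71 replicates 1 and 2 and of S490/498 replicate 1 held 12464, 14716 and 7132 peaks on the chromosomes used, whereas that of S490/498 replicate 2 held 435. This library stands apart, and results that rest on it are given with and without it. Read totals are not in the lists. From the deposited fold enrichment and p-value, the number of fragments at the summit (the pileup) and the number expected there from the local background were worked out for each peak. The median peak at these lncRNA genes rested on a pileup of 8, 9 and 8 fragments in the first 3 libraries, over a median expectation of 0.507, 0.506 and 0.544. In S490/498 replicate 2 the median was 22 fragments over an expectation of 2.32, so that its peaks needed more fragments. The smallest pileup behind a peak was 3 fragments in the first 3 libraries, and such single-library peaks are thinly supported.

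Before the counts, the promoter sequences of 5 of these genes are shown, since they carry both a peak and the motif that ATF2 is known to bind. The palindromic CRE was searched as TGACGTCA on both strands in windows of 250 bases before to 50 bases after each start in the RefSeq promoter table of GRCm38.p6, which matched 7467 of the 10007 genes. The 5 genes have a summit within 1 kb of the start in both T69/71 libraries and in S490/498 replicate 1. The windows are chr11:6528711-6529010 (minus strand) for Snhg15, chr16:21794097-21794396 (plus strand) for 1300002E11Rik, chr7:132931022-132931321 (minus strand) for 1500002F19Rik, chr8:111145449-111145748 (minus strand) for 9430091E24Rik and chr2:167777878-167778177 (minus strand) for Gm32287. Each is written 5′ to 3′ on the gene's own strand, and capitals mark the CRE.
Snhg15: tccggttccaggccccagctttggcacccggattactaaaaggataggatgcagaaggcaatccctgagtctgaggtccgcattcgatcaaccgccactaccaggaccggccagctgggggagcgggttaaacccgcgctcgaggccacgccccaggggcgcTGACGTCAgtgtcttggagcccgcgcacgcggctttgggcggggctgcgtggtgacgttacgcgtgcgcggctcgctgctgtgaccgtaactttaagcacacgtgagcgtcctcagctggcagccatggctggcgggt
1300002E11Rik: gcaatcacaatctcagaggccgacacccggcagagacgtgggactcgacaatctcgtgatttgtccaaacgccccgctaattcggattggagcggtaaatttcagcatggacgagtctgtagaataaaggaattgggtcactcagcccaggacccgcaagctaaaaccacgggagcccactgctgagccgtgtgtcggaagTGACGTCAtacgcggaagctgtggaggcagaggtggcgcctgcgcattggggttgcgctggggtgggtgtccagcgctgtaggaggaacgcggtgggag
1500002F19Rik: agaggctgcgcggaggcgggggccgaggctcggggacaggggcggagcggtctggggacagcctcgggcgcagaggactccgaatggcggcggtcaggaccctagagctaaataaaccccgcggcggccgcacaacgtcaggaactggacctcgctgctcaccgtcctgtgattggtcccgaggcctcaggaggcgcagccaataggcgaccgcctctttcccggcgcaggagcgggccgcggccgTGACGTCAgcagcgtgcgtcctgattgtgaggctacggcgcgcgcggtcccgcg
9430091E24Rik: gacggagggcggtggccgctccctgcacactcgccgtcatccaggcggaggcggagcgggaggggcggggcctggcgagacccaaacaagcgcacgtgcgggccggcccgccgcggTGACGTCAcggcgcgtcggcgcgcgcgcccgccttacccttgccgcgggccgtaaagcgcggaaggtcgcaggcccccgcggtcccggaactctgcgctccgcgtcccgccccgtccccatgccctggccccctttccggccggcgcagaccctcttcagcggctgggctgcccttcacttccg
Gm32287: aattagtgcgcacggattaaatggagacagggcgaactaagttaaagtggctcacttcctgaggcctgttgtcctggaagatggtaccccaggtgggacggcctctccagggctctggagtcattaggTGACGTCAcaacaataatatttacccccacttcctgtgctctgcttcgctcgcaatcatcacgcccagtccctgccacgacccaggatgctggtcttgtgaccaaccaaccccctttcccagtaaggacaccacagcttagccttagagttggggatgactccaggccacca

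In the Snhg15 window the CRE begins at position -88 from the start, and the 3 summits lay at -52, -100 and -51, which is 32, 15 and 33 bp from the middle of the CRE in T69/71 replicate 1, T69/71 replicate 2 and S490/498 replicate 1. At 1300002E11Rik the corresponding distances from the CRE were 23, 22 and 52 bp, with fold enrichments of 15.4, 10.4 and 11.7. For 1500002F19Rik they were 47, 108 and 74 bp, with folds of 11.6, 17.0 and 8.0. For 9430091E24Rik they were 30, 73 and 85 bp, with folds of 10.5, 6.66 and 6.33. Gm32287 had summits 140, 64 and 38 bp from the CRE, with folds of 6.39, 6.13 and 6.18. Each of these summits lay within 140 bp of the CRE printed, and none of the 5 genes had a peak in S490/498 replicate 2. The genes were chosen for a CRE and a summit near the same start, so short distances are partly fixed by that choice. Whether summits lie nearer to a CRE than their place around the start alone would give was not tested. A second annotated start of Gm32287 and the start of the divergent Gm14321 share another CRE, and the same peaks lay 427, 503 and 529 bp from it. Fold enrichment here is the authors' value, the summit's fragments plus 1 over the number expected from its library's own local background plus 1. Where the expected number is below 1, the added 1 weighs heavily and the fold follows the number of fragments closely. Folds of different libraries are therefore set side by side as a description.

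A small minority of the 10007 genes had a phospho-ATF2 peak. T69/71 replicate 1 marked 418 genes, or 4.18% (exact binomial 95% interval 3.79 to 4.59), where 15.1% of all 49943 genes of the table were marked. T69/71 replicate 2 marked 486, or 4.86% (4.44 to 5.30), against 15.4% of all genes. S490/498 replicate 1 marked 214, or 2.14% (1.86 to 2.44), against 9.64%, and S490/498 replicate 2 marked 10, or 0.0999% (0.0479 to 0.184), against 0.17%. These intervals cover counting error only, and genes are not replicates. The share was below that of all genes beyond counting error in the first 3 libraries, whereas the interval of S490/498 replicate 2 contains the share of all genes.

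Both T69/71 libraries marked 235 of the genes, a share of 2.35% (2.06 to 2.66), beside 11.3% of all genes. Counts over several libraries are of genes, and the peaks need not be the same: at Mirt1 they lay at different ends. Genes with the same peak in each library were not counted apart. Both S490/498 libraries marked 5 genes, a share of 0.05%, beside 0.122% of all genes. Both T69/71 libraries and S490/498 replicate 1 marked 115 genes, a share of 1.15%, beside 7.55% of all genes. In all, 9290 genes had no peak in any library, 426 had one in a single library, 174 in 2, 114 in 3 and 3 in all 4. A peak in any library was thus found at 717 of the genes, or 7.16%, beside 19.9% of all genes. Protein-coding genes were marked far more often, at 27.5%, 27.9%, 17.9% and 0.224% in the 4 libraries. The lncRNA genes within 2 kb of a coding gene end, where a peak can belong to the neighbour, stood at 25.8%, 25.4%, 16.8% and 0.331%.

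**Figure D1:**
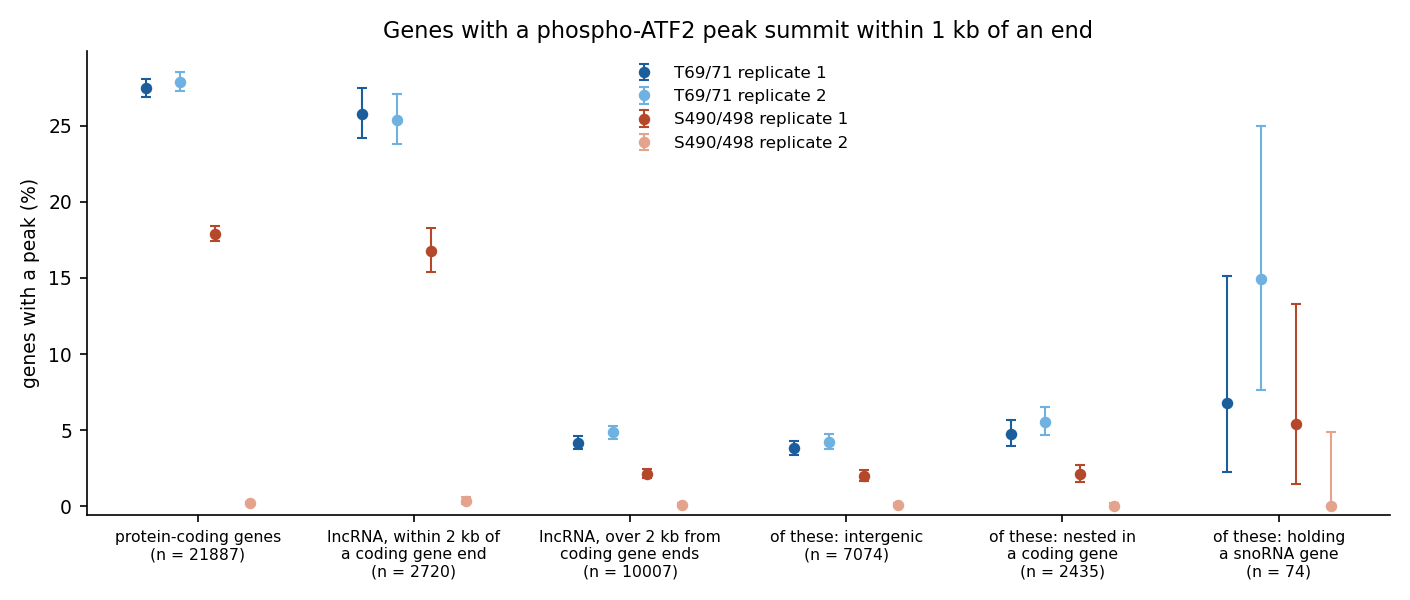
Percent of genes with a peak summit within 1 kb of either end (vertical axis) by gene class (horizontal axis) in each of the 4 libraries; points are shares and bars exact binomial 95% intervals. In T69/71 replicate 1 the lncRNA genes away from coding genes stand at 4.18% and those near coding gene ends at 25.8%, close to the 27.5% of coding genes.

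The mean share over the 2 T69/71 libraries was 4.52%, and over the 2 S490/498 libraries 1.12%, a difference of 3.4 percentage points. Permuting the 4 libraries exactly (two-sided) gave p = 0.333, the smallest that 2 libraries against 2 allow, so no call is possible. Without S490/498 replicate 2 the difference was 2.38 points. Both T69/71 libraries lay above both S490/498 libraries, and their lists also held more peaks over the whole genome. With each list cut to its strongest 7132 peaks (S490/498 replicate 2 keeping its whole list), the difference was 1.15 points (exact p = 0.667). This cut leaves both S490/498 shares, 2.14% and 0.0999%, as they were. With p above its smallest value, the T69/71 libraries no longer both lay above S490/498 replicate 1. The 1.15 points include the short list of S490/498 replicate 2, and the difference without it was not worked out for the cut lists.

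Agreement between the libraries was lower here than at coding genes. Of the genes marked in T69/71 replicate 1, 56.2% (51.3 to 61.0) were marked in replicate 2, and of those marked in replicate 2, 48.4% (43.8 to 52.9) were marked in replicate 1. At coding genes these shares were 76.7% and 75.7%. The peaks were also weaker: the median fold at the lncRNA genes was 5.63, 6.66 and 6.02 in the first 3 libraries, against 7.12, 7.56 and 6.89 at coding gene ends. Of the 235 genes marked in both T69/71 libraries, 48.9% (42.4 to 55.5) also had a peak in S490/498 replicate 1, against 67.5% of the coding genes. Ordered by their T69/71 fold, the 79 weakest of the 235 had an S490/498 replicate 1 peak in 20.3%, the middle 78 in 50.0% and the strongest 78 in 76.9%. Of the 214 genes marked in S490/498 replicate 1, 78.5% had a peak in at least 1 T69/71 library.

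Some genes share a peak. Between 8 and 15 of the peaks in each of the first 3 libraries served 2 of the genes, and no peak served more than 2. A noncoding gene outside the set had an end within 1 kb of 14 to 25 of the peaks, a tRNA gene for 7 to 11 of them. Counted as loci with their own summit, the 235 genes of both T69/71 libraries made 228.

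The share with a peak was lower far from coding gene ends than just beyond the 2 kb limit. A lncRNA gene deep inside a long coding gene also counts as far, such as Kcnq1ot1 in Kcnq1. In T69/71 replicate 1 the share with a peak was 7.20% (5.76 to 8.87) of the 1125 genes at 2-5 kb, 5.08% at 5-10 kb, 5.85% at 10-20 kb, 4.70% at 20-50 kb, 2.93% at 50-100 kb and 1.71% (1.24 to 2.30) of the 2514 genes more than 100 kb away. T69/71 replicate 2 went from 8.09% to 2.03% over the same classes, and S490/498 replicate 1 from 4.00% to 0.557%. The nearest and the farthest class do not overlap in their intervals in these 3 libraries, whereas neighbouring classes mostly do. Just inside the limit, at 2000 to 2500 bp, 8.09% and 8.94% of 235 genes had a peak in the T69/71 libraries, and just outside it, at 1500 to 2000 bp, 9.73% of 298 genes did in each of them. The lncRNA genes with a peak more often had a marked coding neighbour: the nearest coding gene was itself marked for 34.7% (30.1 to 39.5) of them in T69/71 replicate 1 and for 22.9% (22.1 to 23.8) of the lncRNA genes without a peak. The corresponding shares were 32.3% and 24.7% in T69/71 replicate 2, and 23.4% and 13.6% in S490/498 replicate 1. Where a lncRNA gene overlaps a coding gene, the nearest coding gene is one that it overlaps.

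**Figure D2:**
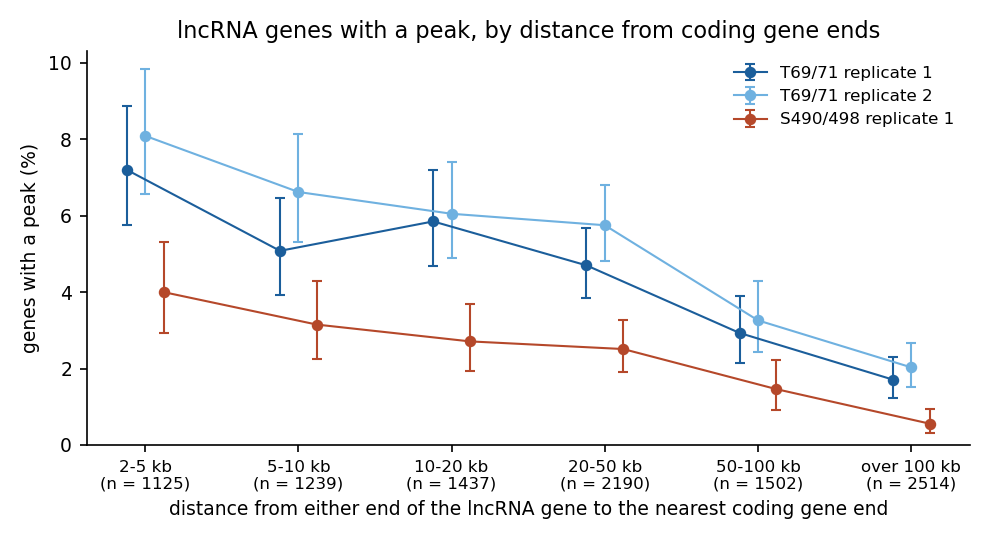
Percent of the lncRNA genes with a peak (vertical axis) by the distance of the nearer of their ends to a coding gene end (horizontal axis) in 3 libraries; bars are exact binomial 95% intervals. S490/498 replicate 2, with 10 marked genes, is not drawn. The share goes from 7.20% at 2-5 kb to 1.71% over 100 kb in T69/71 replicate 1.

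By position, 7074 of the genes are intergenic, 2435 are nested in a protein-coding gene, 411 overlap one in part and 87 contain one. Of the intergenic genes, 3.82%, 4.24%, 1.99% and 0.099% had a peak in T69/71 replicates 1 and 2 and S490/498 replicates 1 and 2. The nested, intragenic genes stood at 4.76%, 5.54%, 2.09% and 0.0411%. Intergenic minus nested was -0.947, -1.30, -0.101 and 0.0579 percentage points in the 4 libraries, with a mean of -0.573 and p = 0.25 in an exact two-sided sign-flip permutation test over libraries, whose smallest p is 0.125. Intergenic genes were lower in 3 of 4 libraries, and the difference was not distinguished from 0. Without S490/498 replicate 2 the mean was -0.784. With curated genes only it was -2.04 (exact p = 0.25). With every overlap with a coding gene counted as intragenic it was -0.957 (exact p = 0.125), and with the lists cut to 7132 peaks -0.114. The genes that overlap a coding gene in part had the highest shares, 7.06%, 11.7% and 4.87% in the first 3 libraries.

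Summits lay at the start more often than at the 3′ end. The promoter table gives the strand of 7467 genes, and 6727 of them are over 2 kb long, so that the windows of their ends do not overlap. The start had a peak in 3.33%, 3.69%, 1.68% and 0.0743% of them in the 4 libraries, and the 3′ end in 1.03%, 1.23%, 0.52% and 0.0446%. In both T69/71 libraries 127 starts and 30 3′ ends were marked. The start was higher in 4 of 4 libraries, with a mean difference of 1.49 points and p = 0.125 in an exact two-sided sign-flip permutation test, the smallest it can give. Without S490/498 replicate 2 the mean difference was 1.97 points, with an exact p of 0.25, the smallest that 3 libraries allow. In the 200-bp bin centred on the start there were 7.88, 11.3 and 4.76 summits per 1000 genes in the first 3 libraries. In the bin centred 2 kb upstream there were 0.743, 1.04 and 1.19. Over all bins drawn that lie more than 1 kb upstream, the values ran from 0.743 to 2.82, from 1.04 to 2.38 and from 0.446 to 1.19. Centred on the 3′ end, the bin held 0.446, 0.743 and 0.297 per 1000 genes, no more than the bins 2 kb away.

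**Figure D3:**
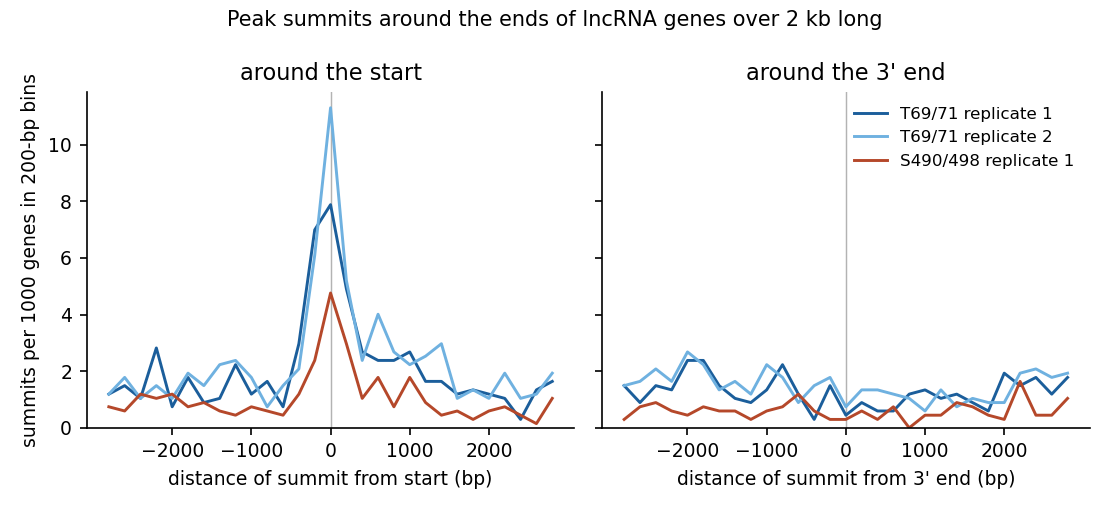
Peak summits per 1000 genes in 200-bp bins (vertical axis) by distance from the start (left) and from the 3′ end (right), with the direction of transcription to the right, for 6727 lncRNA genes over 2 kb long in 3 libraries. The bin centred on the start reaches 11.3 per 1000 in T69/71 replicate 2, and no such rise is seen at the 3′ end.

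Promoters of these genes are mostly poor in CpG, the dinucleotide that is kept at the promoters of widely expressed genes. The ratio of observed to expected CpG had a median of 0.216 over the 9094 promoter windows of the 7467 genes, against 0.567 at coding genes. The windows with a summit within 1 kb of the start in both T69/71 libraries had a median ratio of 0.447 and a GC content of 56.7%, and those with no peak in any library 0.211 and 47.0%. A peak in both T69/71 libraries was found at 0.813% of the windows with a ratio under 0.2, at 1.59% from 0.2 to 0.4, at 2.14% from 0.4 to 0.6, at 8.87% (6.19 to 12.2) from 0.6 to 0.8 and at 21.0% (15.7 to 27.1) of the 210 windows over 0.8. Coding promoters went from 1.13% to 44.2% over the same classes. In each class of CpG ratio above 0.2 the lncRNA promoters were thus marked less often, with intervals that do not overlap those of the coding promoters. These intervals count windows, and windows of 1 gene can share a peak, so they are too narrow. The 186 lncRNA windows with a peak in both T69/71 libraries belong to 168 genes.

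**Figure D4:**
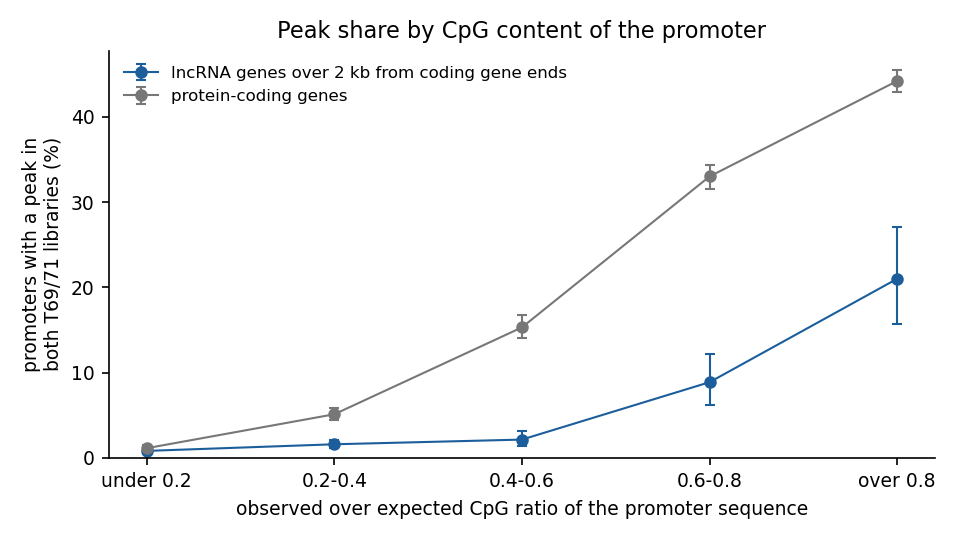
Percent of promoter windows with a summit within 1 kb of the start in both T69/71 libraries (vertical axis) by the observed over expected CpG ratio of the window (horizontal axis), for the lncRNA genes away from coding genes and for coding genes; bars are exact binomial 95% intervals. Both rise with the ratio, to 21.0% and 44.2% over 0.8.

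The CRE was rare. It stood in 68 of the 9094 lncRNA promoter windows, or 0.748%, against 1.79% of all 32851 promoters of the table. Among the 186 windows with a peak in both T69/71 libraries 7 held it, or 3.76% (1.53 to 7.60), against 0.653% (0.494 to 0.847) of the windows with no peak in any library. All 7 were also marked in S490/498 replicate 1, where they made 6.86% (2.80 to 13.6) of 102 windows. Seen from the motif, 10.3% (4.24 to 20.1) of the 68 windows with a CRE had a peak in both T69/71 libraries and 1.98% (1.71 to 2.29) of those without. For coding promoters these shares were 55.6% and 21.2%. The 7 windows belong to the 5 genes printed above and to Gm14321, and hold 6 different CREs. Those of Gm32287 and Gm14321 lie at the same peaks. The intervals of these shares thus count the same peaks more than once and are too narrow. The shares were also split by CpG ratio. Among lncRNA windows with a ratio over 0.6, a CRE was found in 5.19% (1.43 to 12.8) of those with a peak in both T69/71 libraries. It was found in 3.56% (2.13 to 5.57) of those without, and the intervals overlap. Below that ratio the shares were 2.75% (0.571 to 7.83) and 0.512% (0.371 to 0.689), also with overlap. There the windows with a CRE and a peak were all at Gm32287 and Gm14321. For coding promoters the shares over 0.6 were 6.11% (5.39 to 6.90) and 2.16% (1.81 to 2.55), without overlap. Below it they were 2.86% (1.73 to 4.43) and 0.755% (0.598 to 0.940), again without overlap. Whether CpG accounts for the differences was not tested.

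Other motifs were searched on both strands in the same windows, and none contains another. The AP-1 site TGACTCA, bound by Fos and Jun dimers, stood in 5.20% of all promoters of the table, in 5.91% of the lncRNA windows with a peak in both T69/71 libraries and in 6.83% of those with none in any. The composite site TGATGCAA of C/EBP and ATF factors stood in 0.895%, 1.61% and 1.01%. The GC box GGGCGG, bound by Sp factors, stood in 35.7%, 42.5% and 8.80%, the CCAAT box in 37.4%, 30.6% and 36.9%, and the E-box CACGTG in 7.15%, 12.4% and 5.20%. The GC box had the widest gap in percentage points between lncRNA windows with and without a peak. Its letters include CpG, as do those of the CRE and the E-box. Split by CpG ratio, its intervals did not overlap, though they too are too narrow where windows share a peak. Over 0.6 they were 65.6 to 85.5% for windows with a peak in both T69/71 libraries and 33.8 to 42.4% for those without. Below that ratio the shares were 18.3% (11.6 to 26.9) and 7.62% (7.06 to 8.2). Whether CpG accounts for this gap was not tested. A match is a run of letters and not a bound site.

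The leading genes are next. They were taken as the 15 with the best mean rank of the authors' -log10 q over both T69/71 libraries, the 5 best in S490/498 replicate 1 and every gene marked in all 4 libraries. Some had their peak at the start, some away from any annotated start, and a few had broad peaks.

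Snhg15, the host of a snoRNA gene and a short-lived RNA known to rise under stress (chr11:6525591-6528760), led the genes with a familiar name. Its fold was 19.4 and 13.9 in T69/71 replicates 1 and 2 and 16.8 in S490/498 replicate 1, over pileups of 75, 30 and 44 fragments, with no peak in S490/498 replicate 2. The S490/498 value lies between the 2 T69/71 values. Neat1, the scaffold RNA of paraspeckles (chr19:5824708-5845480), had folds of 8.99, 6.88 and 7.29 in the same libraries over 94, 48 and 52 fragments. Its summits lay 224, 259 and 173 bp outside the gene end at the higher coordinate, and again the S490/498 value fell between the T69/71 ones.

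Several leading genes without a described function had a peak at the start in these 3 libraries and none in S490/498 replicate 2. For 5033406O09Rik (chr12:111941991-111944482) the folds were 15.7, 13.7 and 15.1, and the summits lay 65, 66 and 67 bp inside the start. Its promoter window, chr12:111944433-111944732 on the minus strand, is shown because it has such a peak with no CRE; capitals mark an AP-1 site at -222 and the GC boxes.
5033406O09Rik: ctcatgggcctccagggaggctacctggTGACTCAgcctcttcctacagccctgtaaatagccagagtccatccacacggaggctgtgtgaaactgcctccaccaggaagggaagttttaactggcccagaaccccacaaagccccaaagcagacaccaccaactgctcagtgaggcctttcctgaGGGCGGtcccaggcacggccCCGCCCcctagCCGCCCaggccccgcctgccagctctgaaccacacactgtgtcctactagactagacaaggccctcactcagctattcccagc

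At 1700096K18Rik the summits lay at -262, -261 and -261 from the start, with folds of 13.8, 16.1 and 10.2. D130051D11Rik had summits at 117, 33 and 33 bp inside the start and folds of 12.1, 13.5 and 7.16. For 1700055D16Rik, which overlaps Dusp16 in part, the summits lay 256, 343 and 308 bp inside the start, with folds of 17.6, 15.7 and 15.3. Gm40345, nested in Por, had folds of 10.2, 14.2 and 9.63, and 2700012I20Rik, nested in Sin3a, 7.69, 8.01 and 7.73. Gm46183, nested in Srgap1, had summits 977, 927 and 977 bp inside its outermost start, which is 47, 97 and 47 bp before another start in the promoter table, with folds of 16.1, 15.8 and 11.9. In these 7 genes the summits of the libraries lay within 100 bp of each other. The higher T69/71 fold was that of replicate 1 in 3 of them and of replicate 2 in 4.

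Other leading peaks lay away from a start. Gm46796 (chr3:6107017-6115915), an intergenic gene 499498 bp from the nearest coding gene end, had the highest folds of all, 38.2, 33.3 and 30.7, over 131, 63 and 70 fragments. Its summits lay 221, 221 and 215 bp beyond the 3′ end, and the peaks began at the same base, 6116050, in all 3 libraries and were 230, 208 and 229 bp wide. Peaks were not filtered here against places known to give signal with any antibody. 6530402F18Rik, which overlaps Ntng2 in part, had folds of 21.7, 14.0 and 16.7 with summits 546, 458 and 547 bp inside its 3′ end. Gm52667, nested in Pde4b, had folds of 11.2, 10.6 and 9.71 at -978, -984 and -984 from its start, close to the edge of the window. Gm33622, intergenic and without a strand in the promoter table, had folds of 18.7, 14.1 and 11.9.

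Gm40237, AY036118 and Gm15323 had a peak in all 4 libraries. Gm40237 (chr4:118547139-118548256), 2219 bp from an end of Tmem125 and thus just inside the limit, had folds of 24.0, 22.6, 18.6 and 15.7 in T69/71 replicates 1 and 2 and S490/498 replicates 1 and 2. Its peaks were 1508, 1493, 1477 and 1489 bp wide, longer than the gene itself at 1118 bp. In S490/498 replicate 2 its -log10 q was 380, against 7.74 for AY036118 and 4.42 for Gm15323. The promoter windows of Gm40237 hold a run of bases repeated many times in tandem. Whether reads at Gm40237 map to 1 place, or whether it has high signal with any antibody, was not tested. Gm15323 (chr13:112001009-112012238), 182740 bp from a coding gene end, had folds of 8.25, 10.3, 6.32 and 4.94 with summits 199, 287, 296 and 325 bp inside the start. AY036118 (chr17:39848112-39898385) had the lowest folds of the 3, 2.49, 2.30, 3.00 and 1.82, over pileups of 146, 309, 117 and 164 fragments. In the first 3 libraries these exceed the 99, 88 and 56 fragments of Gm40237 and the 17, 29 and 10 of Gm15323; the S490/498 replicate 2 pileup of Gm40237 was not worked out. The local background of AY036118 was thus high, and whether reads there map to 1 place, or whether the region has high signal with any antibody, was not tested. The S490/498 replicate 2 value was the lowest of the 4 in each of these genes.

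**Figure D5:**
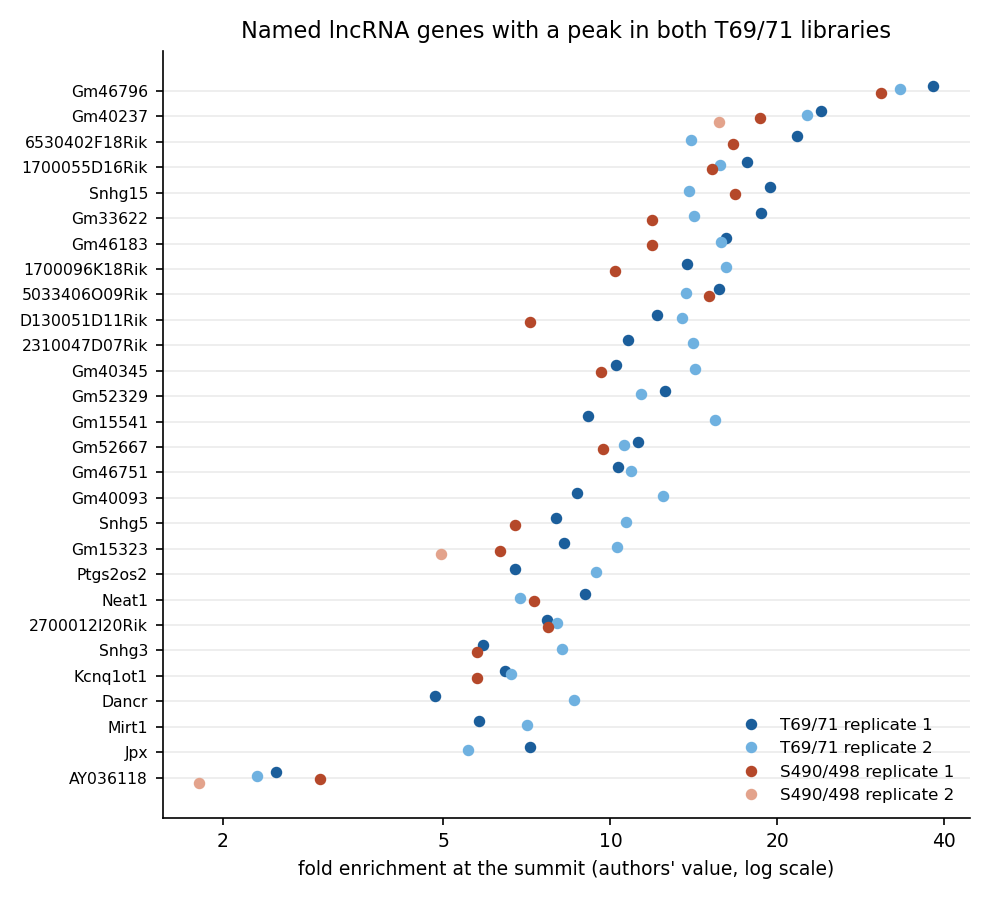
Fold enrichment at the summit (authors' value, log scale, horizontal axis) for the named lncRNA genes with a peak in both T69/71 libraries (vertical axis), 1 point per library with a peak. Gm46796 reaches 38.2, AY036118 lies at 3.00 or below, and 3 genes have a point for S490/498 replicate 2.

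Among genes marked in both T69/71 libraries and in no S490/498 library, the 5 with the best rank were 2310047D07Rik, Gm52329, Gm15541, Gm46751 and Gm40093. Their folds in T69/71 replicates 1 and 2 were 10.7 and 14.1, 12.6 and 11.3, 9.12 and 15.4, 10.3 and 10.9, and 8.71 and 12.4, in that order. The windows of Gm46751 and Gm15541, with CpG ratios of 0.866 and 0.773, hold several GC boxes, and the summits lay at -166 and -139 in the first and -320 and -290 in the second. In all, 120 genes had this pattern, or 1.20%, beside 3.72% of all genes. S490/498 replicate 1 alone marked 46, or 0.46%, beside 0.687% of all genes. The 5 strongest of the latter, Gm15762, A630001O12Rik, Gm41800, Gm13383 and Gm33856, had folds of 7.35, 6.08, 6.29, 6.73 and 6.34 over 8, 19, 6, 8 and 7 fragments. No value from a second library stands behind these folds. The leading genes of each antibody were picked by different rules from lists of unlike length, so their folds are not compared. Without a peak in the other antibody's list, no difference between antibodies was tested for these genes.

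Host genes of snoRNAs are transcribed mainly for the small RNAs in their introns, which guide modification of ribosomal and spliceosomal RNAs. Within the 10007 genes, 74 hold a snoRNA gene of the table, most of them predicted. Of these, 5 (6.76%), 11 (14.9%), 4 (5.41%) and 0 had a peak in the 4 libraries, and 4 (5.41%, interval 1.49 to 13.3) in both T69/71 libraries, beside 2.33% (2.04 to 2.64) of the 9933 genes that hold none. The intervals of these last shares overlap. The 4 hosts marked in both T69/71 libraries were Snhg3, Dancr, Snhg5 and Snhg15. Of the genes that hold none, 4.16%, 4.78% and 2.11% had a peak in the first 3 libraries. Among single libraries the intervals were apart in T69/71 replicate 2 only. There the interval of the hosts began at 7.66%, and that of the other genes was 4.37 to 5.22%. For a peak in any library the shares were 16.2% (8.67 to 26.6) and 7.1% (6.6 to 7.62), without overlap. This largely repeats the gap of that library, since 11 of the 12 hosts with a peak in any library had one in T69/71 replicate 2. Of the genes with a curated transcript, 11.0% (9.71 to 12.3) had a peak in any library, which lies inside the interval of the hosts.

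Snhg3, which carries Snora73a and Snora73b, had folds of 5.90, 8.19 and 5.74 in T69/71 replicates 1 and 2 and S490/498 replicate 1, with summits 146, 95 and 73 bp inside the start. Snhg5 had folds of 7.97, 10.7 and 6.72 with summits at -157, -325 and -267. Dancr, which carries Snora26, had T69/71 peaks with folds of 4.82 and 8.60 and no S490/498 peak. Its T69/71 summits lay at -54 and 38 from the start, over 5 and 11 fragments. T69/71 replicate 2 had the higher fold in these 3 hosts and the lower in Snhg15.

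The other 8 hosts with a peak had it in 1 library, or in Snhg4 in 2. T69/71 replicate 2 alone marked AI506816 (fold 5.60), 2700038G22Rik, the host of Snord93 (7.16), 9430037G07Rik (5.04), 9330159M07Rik (5.54), 5033421B08Rik (5.41) and Gm24208 (4.25). The promoter windows of AI506816 and 2700038G22Rik share a long run of bases, as do windows of 9430037G07Rik and 9330159M07Rik. Whether reads at these genes map to 1 place was not tested. T69/71 replicate 1 alone marked 1110038B12Rik, the host of Snord52 (5.42). Snhg4, the host of Snora74a, had folds of 4.25 in T69/71 replicate 2 and 3.48 in S490/498 replicate 1, over 4 and 3 fragments. By name, 8 of the 21 hosts of the list that the table holds as lncRNA genes are among the genes here, the others lying nearer to coding gene ends. Of these 8, 6 had a peak in any library, Snhg20 with a fold of 5.20 in T69/71 replicate 2 being the sixth, and Snhg11 and Snhg17 had none. Of the 84 hosts of a microRNA gene, 4 (4.76%), 5 (5.95%), 2 (2.38%) and 0 were marked in the 4 libraries, beside 4.18%, 4.86%, 2.14% and 0.0999% of all 10007 genes. In both T69/71 libraries 0 were marked, with an interval of 0 to 4.30% that contains the 2.35% of all 10007.

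The counts of listed genes with a peak in any library stand beside the 7.16% of all 10007 genes and 11.0% of the 2262 with a curated transcript. Of the well-studied nuclear and stress lncRNAs, 12 are among the genes and 6 had a peak in any library; 3 of them, Neat1, Kcnq1ot1 and Mirt1, had one in both T69/71 libraries. Kcnq1ot1 had folds of 6.46, 6.62 and 5.74 in T69/71 replicates 1 and 2 and S490/498 replicate 1, at -13, -147 and -204 from its start inside Kcnq1. Mirt1 had peaks in the T69/71 libraries with folds of 5.80 and 7.08, but at different ends of the gene. Malat1, an abundant RNA of nuclear speckles, had a single peak in T69/71 replicate 1, with a fold of 6.85, at -930 from its start. Trp53cor1, a p53 target beside Cdkn1a, had a fold of 5.79 in T69/71 replicate 2 alone.

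For Dleu2, the host of miR-15a and miR-16-1, the peak with the best q at an end was taken in each library. In T69/71 replicate 1 its summit lay 884 bp inside the start, with a fold of 10.7. In S490/498 replicate 1 a different peak was taken, 112 bp outside the start, with a fold of 5.48. Whether either library also had the other's peak there was not examined. Over the whole gene T69/71 replicate 2 and S490/498 replicate 1 had 2 peaks each, with top folds of 10.8 and 8.68, and neither of the T69/71 replicate 2 peaks had its summit in the window. Nron, Norad, Lncpint, Meg3, Pvt1 and Firre had no peak at an end. Lncpint, a p53-induced RNA, nevertheless had 2 peaks over its body in each of the first 3 libraries, with top folds of 11.3, 12.5 and 8.34. A count at the table's ends leaves out such peaks.

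Of 19 lncRNAs described in blood or immune cells, 4 had a peak in any library: Ptgs2os2, Snhg15, Malat1 and Neat1. Ptgs2os2, known as lincRNA-Cox2, had T69/71 peaks with folds of 6.72 and 9.41 at -216 and -120 from its start and no S490/498 peak. Morrbid, H19, Meg3, Mir17hg, Mir155hg and Bloodlinc were among the 15 with none.

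Among 13 lncRNAs of X inactivation and imprinting, 3 had a peak: Kcnq1ot1, Peg13 and Jpx. Jpx, an activator of Xist, had T69/71 peaks with folds of 7.16 and 5.54, 58 and 28 bp inside its start. Peg13, nested in Trappc9, had a fold of 6.29 in T69/71 replicate 1 alone. Xist had no peak at either end, and a single peak over its body, with a fold of 6.09 in T69/71 replicate 2. Ftx had none at its ends but 2, 2 and 1 peaks over its body, with top folds of 9.54, 12.8 and 5.53.

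Of 13 lncRNAs on a list drawn up for other tissues, Lincmd1, Miat, Peg13 and Trp53cor1 had a peak, and each in 1 library. Lincmd1, of muscle, had a fold of 4.48 over 4 fragments and Miat a fold of 5.31 over 7, both in T69/71 replicate 1. The genes of this list are not confined to other tissues: Trp53cor1 is also on the nuclear and stress list. Ifngas1, without a peak, is also on the blood or immune list. None of the 13 was marked in both T69/71 libraries, which so short a list cannot tell apart from the 2.35% of all 10007 genes. 2610307P16Rik, without a peak at an end, had 3, 4 and 1 peaks over its body in the first 3 libraries, with top folds of 9.51, 10.7 and 8.50. A gene can stand in more than 1 of these lists, and no difference between lists was tested.

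Genes with a curated RefSeq transcript were marked more often than genes known from prediction only. Of the 2262 curated genes 6.68%, 7.43% and 3.98% had a peak in the first 3 libraries, and of the 7745 others 3.45%, 4.11% and 1.60%, with intervals that do not overlap in any of the 3. S490/498 replicate 2 marked 2 and 8 of them. By length, the share in both T69/71 libraries was 3.61% (1.74 to 6.54) of the 277 genes up to 1 kb, 3.30% at 2-5 kb, 1.62% at 10-50 kb and 1.06% (0.459 to 2.08) of the 755 over 50 kb.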

How the data were processed

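Peak lists, 1 per library, were used as the authors deposited them. The submitters' processing notes name FastQC 0.11.5 and Bowtie2 2.2.9, besides MACS2 and ChIPseeker, and the build mm10; for MACS2, version and settings were not given in the sources used here. The authors deposited for each peak a score, the fold over background (a ratio), and -log10 p and -log10 q values. The score was not used. The smallest deposited -log10 q was between 1.31 and 1.39.

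The genes, lists and comparisons were chosen with earlier results of these data known. Pileup and expectation solve fold = (pileup + 1)/(expected + 1) and the Poisson p, for whole pileups, within 0.001 of the deposited -log10 p. Gene positions, promoter windows and strand are from RefSeq tables of GRCm38.p6. The code that marks genes was tested on simulated data. Named genes were those marked in all 4 libraries, the 15 leading in T69/71 and 5 in S490/498 replicate 1, the 5 leading for 1 antibody only, snoRNA hosts with a peak and listed genes with a peak; 1300002E11Rik, 1500002F19Rik, 9430091E24Rik, Gm32287 and Gm14321 (CRE and peak), Lncpint, Ftx, 2610307P16Rik and Xist were added after their values were seen, as were the comparisons of start with 3′ end, CpG and motifs. Python 3.11.15, pandas 2.3.3, SciPy 1.17.1 and matplotlib 3.10.9 were used. Alternatives were other windows, thresholds, distance limits, gene sets and left-out libraries.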

Additional observations from a re-analysis of the deposited data

How the results depend on the processing

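No direction reversed under any alternative run. The genes marked in both T69/71 libraries (235), in both S490/498 libraries (5) and in both T69/71 libraries with S490/498 replicate 1 (115) became 356, 9 and 174 with a 2 kb window, 142, 3 and 76 with peaks of -log10 q of at least 5, 147, 3 and 65 with genes over 10 kb from coding gene ends, and 85, 1 and 50 with curated genes only, where fewer genes were counted in the last 2. A 500 bp window gave 75 for the last count, the strongest 7132 peaks 128 for the first, and starts only 3 for the second. The snoRNA hosts in both T69/71 libraries (4) were 2 with genes over 5 kb and also 2 over 10 kb from coding gene ends. Leaving out 1 library in turn, and requiring the remaining one, gave 418 to 486, 10 to 214 and 3 to 142 for the 3 counts and 5 to 11 for the snoRNA hosts; the difference between antibodies lay between 2.38 and 4.42 points, and intergenic minus nested between -0.784 and -0.33. Same-numbered libraries of the 2 antibodies deviated together with a correlation of 0.12 over 717 genes; with 2 pairs and no shared origin in the labels the numbers were not taken as pairing, and the replicate block gave a difference of 3.4 points with an exact sign-flip permutation p of 0.5, the smallest it can give. Over all alternatives intergenic minus nested ran from -2.04 (curated genes only) to -0.114 (strongest 7132 peaks), and the difference between antibodies from 1.15 (strongest 7132 peaks) to 5.08 points (2 kb window). Start minus 3′ end, with libraries left out in turn, an alternative chosen after seeing the data, lay between 1.16 and 1.97 points. The other alternatives stayed within 1.5 times the counts. Moving the window from 1000 to 900 or 1100 bp gave 392 and 438 genes for 418 in T69/71 replicate 1.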
